A study of Homo sapiens with 8 samples.

Results

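Transcripts of the ubiquitin-conjugating (E2) enzymes were followed in KYSE150 cells, a long-established line from a human squamous carcinoma of the esophagus, with and without depletion of HNRNPC. HNRNPC is a nuclear protein that binds uridine-rich stretches of nascent transcripts and influences splicing and poly(A) site use. The E2 genes were chosen by name and level, as genes whose symbol is UBE2 followed by a letter and any further letters or digits, with a count of at least 10 in at least 4 of the 8 libraries. This rule gave 32 genes of the 16082 in the deposited table, and 33 genes carried such a symbol.

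E2 enzymes are the middle step of ubiquitin transfer. An E1 enzyme activates ubiquitin and passes it to a cysteine of the E2, and the E2, alone or with an E3 ligase, places it on a substrate or on a growing chain. The E2 does much to decide which chain is built, and some E2 enzymes carry SUMO, NEDD8, ISG15 or FAT10 in place of ubiquitin. In dividing epithelial and cancer cells the family is best known for cell cycle proteolysis, DNA damage signalling and disposal of misfolded proteins.

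The study held 4 control samples (genotype control) and 4 samples carrying a short hairpin RNA against HNRNPC (shHNRNPC), all of KYSE150 and all without drug treatment. Poly(A) RNA was sequenced and the values are read counts per gene. The labels do not say whether the hairpin samples are clones or pools, nor that the samples of a group were separate cultures. The p-values given here therefore set the difference between groups only against the spread of these samples, and that spread may be a technical one.

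Library totals ranged from 28323403 to 34913500 counts with no detectable difference in means (two-sided exact permutation p = 0.657, 4 libraries each). HNRNPC itself had CPM (counts per 1000000 counts of the library, scaled by TMM factors) of 601, 589.9, 571 and 587 in control libraries 1 to 4 and of 33.8, 32.9, 32.5 and 36.5 in shHNRNPC libraries 1 to 4, which was 5.78% of the control mean. Among the shHNRNPC libraries, 1 and 4 lay on the other side of the second principal component (4.51% of the variance) from 2 and 3, so counts are also given without either pair. Of 10 squamous epithelial markers, 8 reached a mean of 1 CPM, and SOX2 and KRT13 did not. Of these 8, 6 were lower in shHNRNPC (KRT14, KRT6A, KRT15, TP63, DSG3 and PERP, log2 fold changes -1.62 to -0.24) and 2 were higher, KRT5 (0.99) and KRT17 (1.70). The list summed to 1180.1 to 1194 CPM in control and 1809 to 1849 CPM in shHNRNPC libraries, a sum carried by KRT5 and KRT17. COL1A1 was the only fibroblast marker of 7 to reach 1 CPM (3.65 to 3.88 summed CPM for the list in control and 8.42 to 9.56 in shHNRNPC). VWF was the only endothelial marker to do so, and CD68 the only leukocyte marker (212 to 225 against 102 to 106 summed CPM). Of 7 leukocyte markers only 3 were among the deposited genes, and CD14 and LYZ stayed below 1 CPM. The leukocyte sum was thus nearly all CD68, and no leukocyte content is read from it. The part of these marker differences in the E2 results was not tested. In bulk RNA, fewer cells of a kind and less RNA per cell cannot be told apart.

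HNRNPC depletion was accompanied by rises and falls within the E2 family, most of them small. Of the 32 E2 genes, 16 were higher and 10 lower in shHNRNPC (adjusted p under 0.05 by edgeR's quasi-likelihood test, with Benjamini-Hochberg adjustment over 12001 genes), which is 81.2% called. Across all genes tested 77.3% were called, 38.7% of them higher and 38.6% lower, so the share of E2 genes called was near the background. The E2 genes had a median log2 fold change of 0.065 and a median absolute log2 fold change of 0.21, beside -0.0057 and 0.30 over all genes tested. Only 6 of the 32 (18.8%) were called with a log2 fold change of 0.5 or more in size, against 27.4% of all genes. CPM of the groups did not overlap for 23 E2 genes (71.9%), against 70.8% of all genes. Without shHNRNPC libraries 1 and 4 the counts were 13 higher and 8 lower, and without libraries 2 and 3 they were 15 higher and 11 lower.

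**Figure D1:**
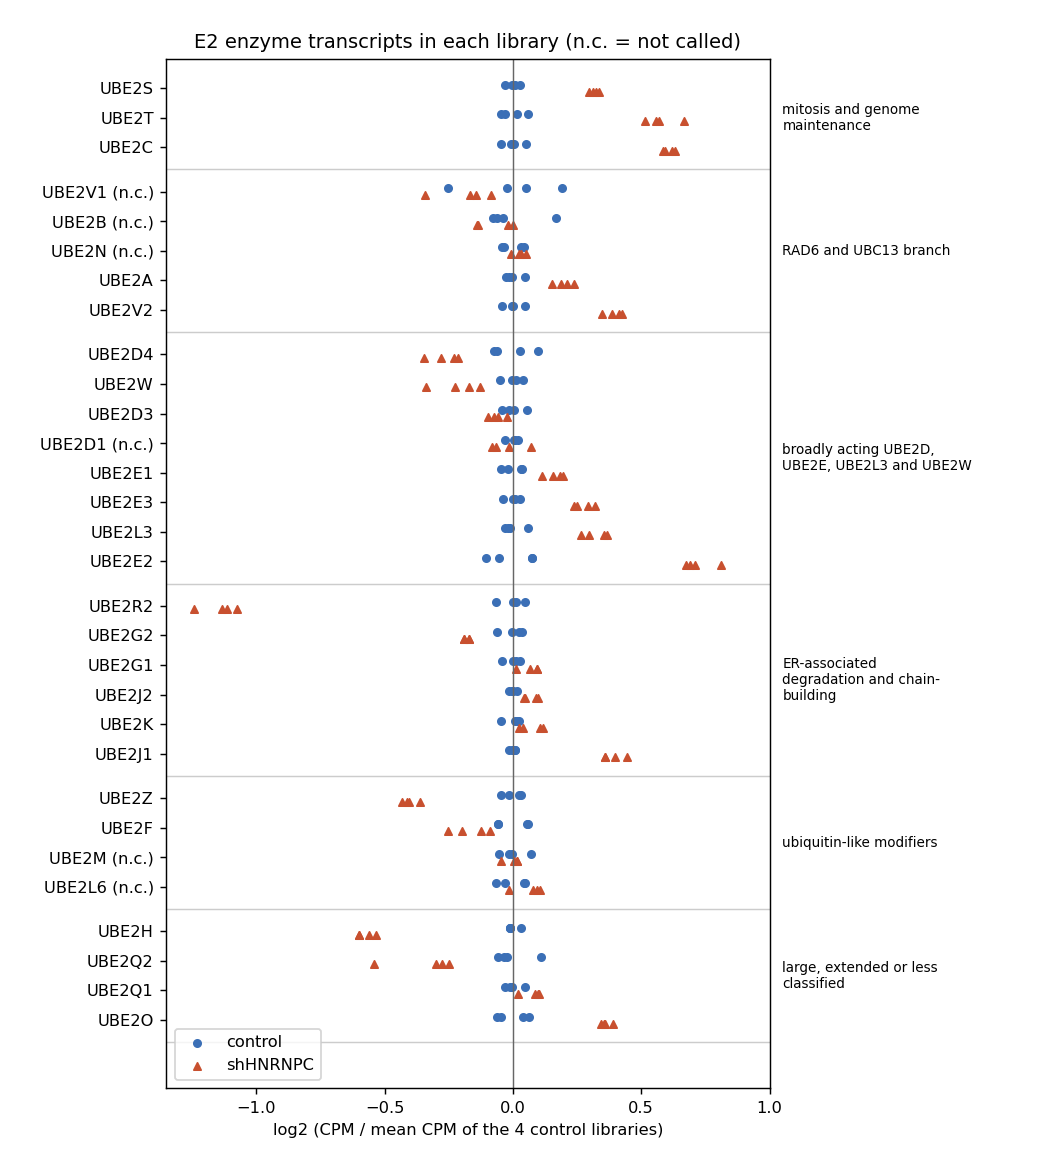
CPM of 30 of the 32 E2 genes in each of the 8 libraries, as log2 of the ratio to the mean of the 4 control libraries (horizontal axis), ordered by role and by fold change within a role. Circles are control and triangles shHNRNPC libraries; n.c. marks the 6 genes not called, and UBE2R2 and UBE2H lie farthest to the left and UBE2E2, UBE2C and UBE2T farthest to the right.

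**Figure D2:**
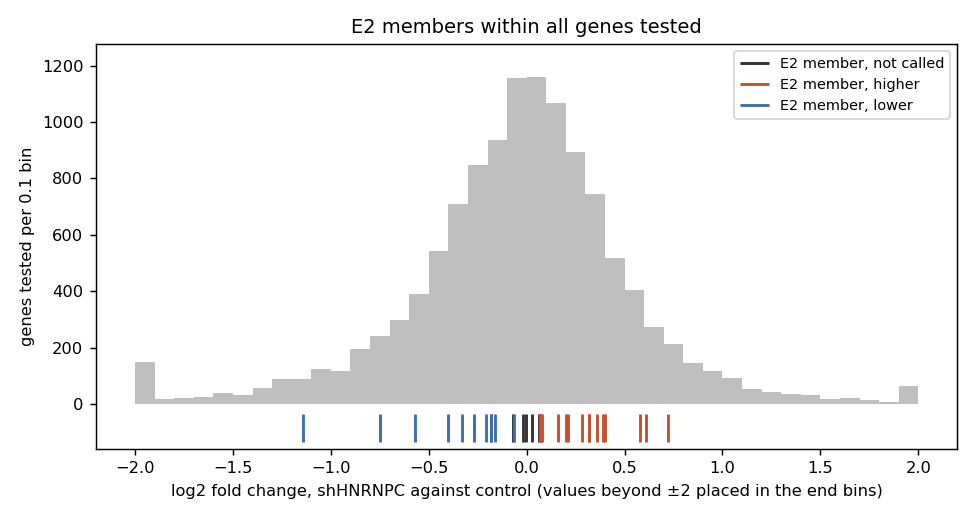
Histogram of the log2 fold change of the 12001 genes tested, in bins of 0.1, with values beyond ±2 placed in the end bins. Tick marks under the histogram are the 32 E2 genes, which span -1.14 to 0.72 and lie on both sides of 0.

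All 3 E2 genes of mitosis and genome maintenance rose. Over all genes tested 38.7% were called higher and 38.6% lower. The counts by role, here and below, are small beside these shares, and no role was tested as a set. UBE2C starts ubiquitin chains on substrates of the anaphase-promoting complex (APC/C), the ligase that ends mitosis. Its CPM were 117, 113, 116 and 121 in control libraries 1 to 4 and 181, 176, 175 and 179.5 in shHNRNPC libraries 1 to 4. The groups did not overlap, and the means were 117 ± 2.97 and 178 ± 2.72 (SD, n = 4 each), a log2 fold change of 0.61 (SE 0.0252, edgeR adjusted p = 8.3e-32). UBE2S extends the chains that UBE2C starts. Its mean rose from 152 ± 2.49 to 189.5 ± 1.97 CPM, a log2 fold change of 0.32 (edgeR adjusted p = 2.6e-19). UBE2T serves the Fanconi anaemia pathway, where it passes ubiquitin to FANCD2 and FANCI with the ligase FANCL. UBE2T had 27.3, 27, 29 and 28.2 CPM in control and 44.3, 39.8, 41 and 41.3 CPM in shHNRNPC libraries. All 4 shHNRNPC libraries lay above all 4 control libraries, with a log2 fold change of 0.58 (SE 0.0467, edgeR adjusted p = 1.4e-17) and 149% of the control mean. UBE2C lies at chr20:45812644-45816952 and UBE2T at chr1:202331657-202341936 (GRCh38.p14).

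In the RAD6 and UBC13 branch, 2 of 5 genes rose, none fell and 3 were not called. The count of 0 lower held at an unadjusted edgeR p under 0.05 and with DESeq2. It did not hold in every alternative. UBE2V1 was called lower without control library 4 (edgeR adjusted p = 0.028) and UBE2B without shHNRNPC libraries 2 and 3 (edgeR adjusted p = 0.0494). UBE2A and UBE2B are the near-identical RAD6 proteins, which mark histone H2B and PCNA. UBE2A rose from 81.2 ± 1.82 to 93 ± 2.32 CPM (log2 fold change 0.20), whereas UBE2B had 30.1 ± 2.49 and 28.6 ± 1.51 CPM and was not called (edgeR adjusted p = 0.208). UBE2N, or UBC13, builds the signalling chains of DNA repair and NF-kB activation together with the catalytically inactive partners UBE2V1 or UBE2V2. UBE2N had 144 ± 4.42 CPM in control and 146 ± 2.58 CPM in shHNRNPC and was not called (edgeR adjusted p = 0.376). The exons of UBE2N overlap those of NUDT4 on the opposite strand over 39.5% of their bases, and the strand setting of the counting is not given in the sources used here. UBE2V2, the partner used in DNA damage tolerance, rose from 85.6 ± 2.17 to 113 ± 2.91 CPM (log2 fold change 0.40, edgeR adjusted p = 1.9e-19). UBE2V1, the partner used in NF-kB signalling, was the lowest E2 gene inside the count rule, with counts of 193 or more in every library. Its CPM were 8.78, 7.58, 7.96 and 6.45 in control and 6.85, 7.25, 6.07 and 6.97 in shHNRNPC libraries, and the groups overlapped (edgeR adjusted p = 0.0998). UBE2V1 shares 42.9% of its exon bases with the read-through gene TMEM189-UBE2V1 on the same strand and has 15 named pseudogenes, so its counts are uncertain. UBE2L5 was the only gene left out by the rule, with 1, 0, 2 and 1 counts in control and 3, 3, 2 and 2 counts in shHNRNPC libraries.

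The broadly acting E2 enzymes, which work with many RING, HECT or RBR ligases, split evenly, with 4 of 9 higher, 4 lower and 1 not called. In the UBE2D family, the close relatives that take part in much RING ligase activity, UBE2D4 fell from 13.4 ± 0.762 to 11.1 ± 0.467 CPM (log2 fold change -0.27). UBE2D3 had 221 ± 6.44 and 211 ± 4.6 CPM with overlapping groups, and its call as lower (log2 fold change -0.064, edgeR adjusted p = 0.0103) ended without control library 4 (adjusted p = 0.0929) or shHNRNPC library 1 (adjusted p = 0.066). UBE2D1 had 40.8 ± 0.584 and 40.2 ± 1.95 CPM and was not called (edgeR adjusted p = 0.671).

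UBE2E1, UBE2E2 and UBE2E3 form a sister family with an extended N terminus, and all 3 were higher. UBE2E2 had 26.4, 28.9, 25.5 and 28.9 CPM in control and 44.3, 43.8, 48.1 and 44.8 CPM in shHNRNPC libraries. Its groups did not overlap, and its log2 fold change of 0.72 (SE 0.0472, edgeR adjusted p = 8.9e-22) was the highest among the E2 genes. UBE2E3 rose from 47.8 ± 0.874 to 57.9 ± 1.52 CPM (log2 fold change 0.28) and UBE2E1 from 91.6 ± 2.61 to 103 ± 2.74 CPM (log2 fold change 0.16). UBE2L3, or UBCH7, which works with HECT and RBR ligases, rose from 161 ± 4.54 to 202 ± 6.46 CPM (log2 fold change 0.32, edgeR adjusted p = 1.2e-18). UBE2W, which attaches ubiquitin to the N terminus of proteins, fell from 41.6 ± 1.11 to 35.9 ± 2.2 CPM (log2 fold change -0.21).

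Among the 6 E2 genes of endoplasmic reticulum-associated degradation (ERAD) and chain building, 4 were higher and 2 lower. UBE2R2, a CDC34-type E2 that extends chains with cullin-RING ligases, had the largest change of the family. Its CPM were 84.5, 78.2, 82.5 and 81.9 in control and 38.8, 34.6, 37.8 and 37.3 in shHNRNPC libraries. All shHNRNPC libraries were below all control libraries, and the mean was 45.4% of control (log2 fold change -1.14, SE 0.0379, edgeR adjusted p = 6.7e-37). UBE2J1, a tail-anchored E2 of the endoplasmic reticulum membrane, rose from 49.1 ± 0.345 to 64.3 ± 1.81 CPM (log2 fold change 0.39, edgeR adjusted p = 3.6e-15). Its relative UBE2J2 had 86 ± 0.759 and 90.2 ± 1.75 CPM (log2 fold change 0.069, edgeR adjusted p = 0.0313), a call that ended without any 1 of control libraries 1 and 2 and shHNRNPC libraries 1 and 4 (adjusted p = 0.0573 to 0.0735). UBE2K, which can build degradation chains without a ligase, had 185 ± 4.13 and 194 ± 6.13 CPM (log2 fold change 0.073, edgeR adjusted p = 0.00477).

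UBE2G1 and UBE2G2 were called in opposite directions. UBE2G2, an E2 of ERAD, had 261, 254, 259 and 244 CPM in control and 223, 226, 223 and 226 CPM in shHNRNPC libraries, with no overlap (log2 fold change -0.18, edgeR adjusted p = 6.7e-11). UBE2G1, which extends chains with cullin-RING ligases, had 103, 107, 108 and 106 CPM in control and 113, 111, 107 and 113 CPM in shHNRNPC libraries. The UBE2G1 groups overlapped, and the call (log2 fold change 0.067, edgeR adjusted p = 0.0264) ended without control library 1 (adjusted p = 0.108), shHNRNPC library 1 (adjusted p = 0.0643) or shHNRNPC library 4 (adjusted p = 0.0565).

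Of the 5 E2 genes that carry ubiquitin-like modifiers, 1 rose, 2 fell and 2 were not called. UBE2Z, charged by the E1 enzyme UBA6 with ubiquitin or FAT10, fell from 188 ± 4.33 to 142 ± 2.99 CPM (log2 fold change -0.40, edgeR adjusted p = 3.8e-23). UBE2F, which passes NEDD8 to CUL5, fell from 33.7 ± 1.54 to 30.1 ± 1.53 CPM (log2 fold change -0.16, edgeR adjusted p = 0.00211), and without shHNRNPC libraries 1 and 4 this call ended (adjusted p = 0.102). UBE2M, which passes NEDD8 to the other cullins, had 146 ± 5.22 CPM in control and 146 ± 3 CPM in shHNRNPC, and was not called (edgeR adjusted p = 0.873). UBE2L6, the interferon-induced E2 for ISG15, had 54.4 ± 2.08 and 56.9 ± 2.1 CPM and was not called (edgeR adjusted p = 0.117).

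Of the 4 large, extended or less classified E2 genes, 2 were higher and 2 lower. UBE2H, the E2 of the CTLH ligase, had 227, 227, 227 and 234 CPM in control and 151, 151, 158 and 155 CPM in shHNRNPC libraries. No shHNRNPC library reached the control range, and the mean was 67.2% of control (log2 fold change -0.57, SE 0.0231, edgeR adjusted p = 2.2e-32). UBE2O, a large protein that combines E2 and E3 activity, rose from 68.7 ± 2.91 to 88.2 ± 1.18 CPM (log2 fold change 0.36, edgeR adjusted p = 7.1e-16). UBE2Q1 and UBE2Q2, a pair with long N-terminal extensions, were called in opposite directions. UBE2Q2 had 21.8, 19.7, 19.4 and 19.9 CPM in control and 17, 16.4, 16.7 and 13.9 CPM in shHNRNPC libraries, with no overlap (log2 fold change -0.33, edgeR adjusted p = 7.1e-06). UBE2Q2 has 10 named pseudogenes, among which the counting could have split its reads. In all, 11 E2 genes have named pseudogenes, among them UBE2C, UBE2D3 and UBE2V2 with 4 each, UBE2F with 3 and UBE2S with 2. Their counts carry the same limit. UBE2Q1 had 83.4, 82.3, 83.9 and 86.9 CPM in control and 90.2, 90.1, 85.3 and 89.4 CPM in shHNRNPC libraries. Its groups overlapped, and its call (log2 fold change 0.077, edgeR adjusted p = 0.0196) ended without control library 2 (adjusted p = 0.0695).

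Promoter sequence is shown for UBE2R2, which fell, and for UBE2T and UBE2E2, which rose, as E2 genes with large changes and an entry in the promoter table. The windows are from RefSeq (GRCh38.p14) and run from 250 bases before to 50 bases after an annotated start, 5′ to 3′ on the strand of the gene: UBE2R2 at chr9:33816910-33817209 (plus strand), UBE2T at chr1:202341887-202342186 (minus strand) and UBE2E2, the first of 3 windows, at chr3:23202848-23203147 (plus strand). The UBE2R2 window lies downstream of the outermost annotated start of the gene. Capitals mark the searched motifs on either strand: the NRF1 motif, which is GCGCA and GCGC parted by 1 base of any kind, in UBE2R2 and UBE2T; CCAAT, the NF-Y motif, at 2 places in UBE2T; and TTTGAA, the cell cycle homology region of G2 and M phase genes, in UBE2T.
UBE2R2: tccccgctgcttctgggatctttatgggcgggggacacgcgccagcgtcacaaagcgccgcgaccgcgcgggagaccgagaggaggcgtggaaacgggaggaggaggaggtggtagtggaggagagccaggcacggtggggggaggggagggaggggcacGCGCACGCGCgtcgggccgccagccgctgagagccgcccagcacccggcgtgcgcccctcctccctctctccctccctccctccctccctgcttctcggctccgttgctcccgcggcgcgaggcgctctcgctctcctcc
UBE2T: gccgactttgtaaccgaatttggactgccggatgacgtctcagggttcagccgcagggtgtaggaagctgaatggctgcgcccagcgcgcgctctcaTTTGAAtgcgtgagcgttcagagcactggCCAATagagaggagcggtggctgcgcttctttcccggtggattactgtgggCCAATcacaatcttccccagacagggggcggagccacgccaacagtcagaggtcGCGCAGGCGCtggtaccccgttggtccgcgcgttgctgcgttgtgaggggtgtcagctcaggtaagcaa
UBE2E2: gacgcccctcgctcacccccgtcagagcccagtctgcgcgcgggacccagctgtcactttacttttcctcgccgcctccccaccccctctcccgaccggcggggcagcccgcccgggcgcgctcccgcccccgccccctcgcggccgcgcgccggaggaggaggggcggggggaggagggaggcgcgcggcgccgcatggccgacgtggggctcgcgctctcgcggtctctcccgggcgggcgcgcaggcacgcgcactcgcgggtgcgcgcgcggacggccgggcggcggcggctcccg
The UBE2T window, of a gene that rose, held both TTTGAA and CCAAT, and the UBE2E2 window held none of the motifs searched. UBE2F, which fell (log2 fold change -0.16), also had both TTTGAA and CCAAT, and UBE2S, which rose, had CCAAT without TTTGAA. Windows were at hand for 25 of the 32 E2 genes. The NRF1 motif was in 9 of the 25 (36%) and in 5.78% of all 35116 windows of this length. An E2 gene was counted if any of its windows held the motif, whereas the share over all windows counts each window once. Genes with several windows had more chances, so the shares for this and the other motifs are not on one footing. The windows of the background were also not limited to genes expressed in these cells, whereas every E2 gene passed the count rule. Those 9 included genes that rose (UBE2T, UBE2G1, UBE2J2, UBE2K), genes that fell (UBE2R2, UBE2D3, UBE2D4, UBE2G2) and UBE2V1, which was not called. The ETS motif CCGGAAG was in 6 (24%) against 10.3% of all windows, CCAAT in 8 (32%) against 34.6%, and TTTGAA in 2 (8%, UBE2F and UBE2T) against 15.2%. The first windows of the 25 E2 genes were also richer in G and C, with a median of 72% against 58.7% over all windows. The part of this G and C content in the motif shares was not tested. Motif matches are descriptions of these letters, and binding was not measured.

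**Figure D3:**
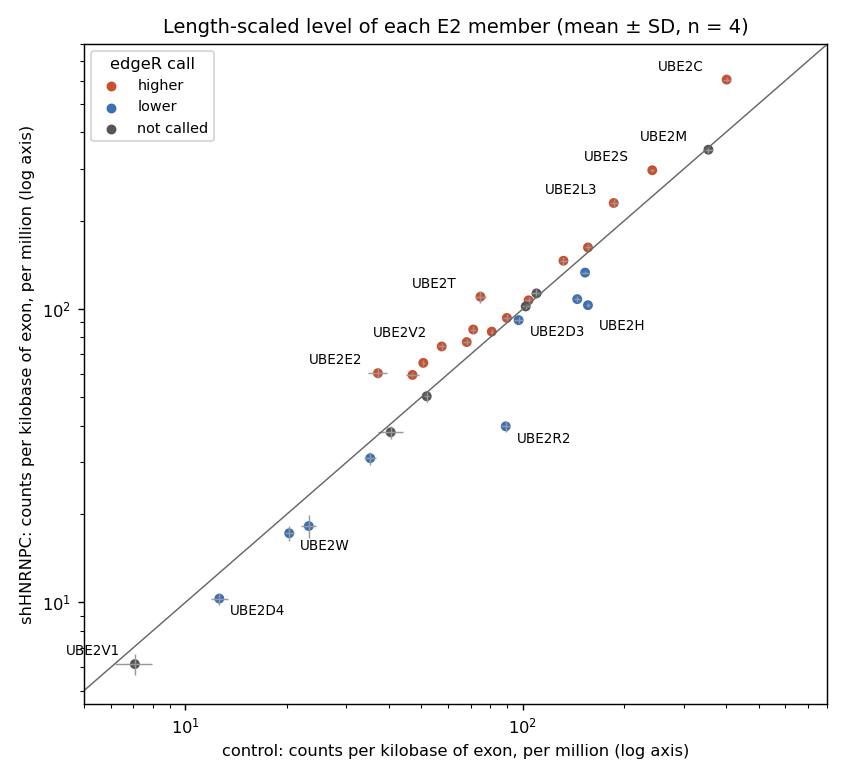
Mean length-scaled level of 30 of the E2 genes (counts per kilobase of exon, per 1000000 in the library) in control (horizontal, log axis) and shHNRNPC (vertical, log axis), with SD over 4 libraries as bars and equality as the line. UBE2C is the highest gene in both groups and UBE2V1 the lowest, and UBE2R2 lies farthest below the line.

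Levels of different E2 genes were compared per length, as counts per kilobase of exon, scaled to sum to 1000000 in each library. The length was that of all annotated exons of a gene together, 1286 bases for UBE2C and 10069 for UBE2D3. It was not that of the transcripts made in these cells, so ranks between genes depend on the annotation. UBE2C had the highest length-scaled level in control (402 ± 9.57, SD, n = 4), followed by UBE2M (355 ± 11.4), UBE2S (242 ± 2.99) and UBE2L3 (186 ± 5.13). UBE2V1, with the uncertainty of its counts given above, had the lowest (7.08 ± 0.881), so the family spanned 56.8-fold. The next lowest was UBE2D4 (12.6 ± 0.732). The control ranges of UBE2K (156 ± 3.04), UBE2H (156 ± 2.28) and UBE2G2 (153 ± 4.43), ranked 5, 6 and 7, lay within each other's spread. In shHNRNPC the 5 highest genes kept their ranks, with UBE2C at 605 ± 10.7 and UBE2S at 297 ± 3.65. UBE2C supplied 11.9% of the summed length-scaled E2 level in control and 16.8% in shHNRNPC. Below them the order changed: UBE2H moved from rank 6 to rank 12 (156 ± 2.28 to 103 ± 1.61), UBE2R2 from rank 16 to 26 (89 ± 2.63 to 39.8 ± 1.85), and UBE2T from rank 18 to 9 (74.9 ± 2.64 to 110.1 ± 5.26).

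The summed share of E2 transcripts depended on the scale. As a share of all counts, the E2 genes took 0.313, 0.312, 0.312 and 0.315% in control and 0.315, 0.314, 0.314 and 0.312% in shHNRNPC libraries. The groups overlapped and the difference of means was 0.000553 percentage points (two-sided exact permutation p = 0.571, 4 libraries each). Per length, the share was 0.339, 0.336, 0.337 and 0.34% in control and 0.364, 0.361, 0.358 and 0.359% in shHNRNPC libraries. Here all shHNRNPC libraries were higher, by 0.0228 percentage points on average (two-sided exact permutation p = 0.0286, the smallest that 70 assignments allow). CPM of the groups did not overlap for 70.8% of single genes tested either, so nothing particular to the E2 family is read from this separation. On the length scale given above, the largest rise of a single E2 gene was that of UBE2C, from 402 to 605. The largest fall was that of UBE2H, from 156 to 103. UBE2C went from 11.9% to 16.8% of the summed E2 level. The share per length without UBE2C was not tested.

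**Figure D4:**
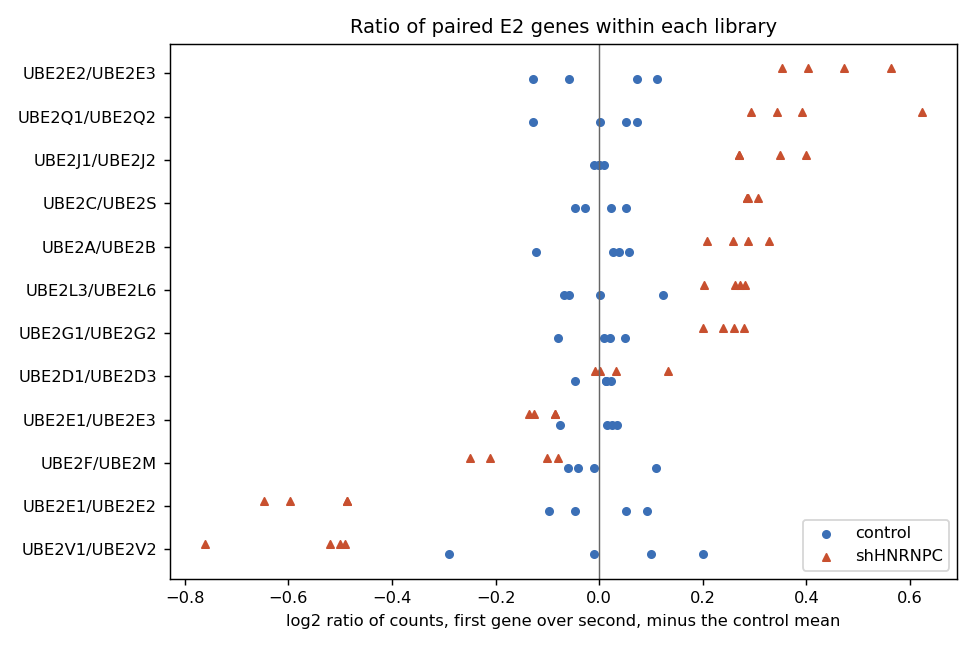
Log2 ratio of the counts of paired E2 genes within each library, minus the mean of the 4 control libraries (horizontal axis); circles are control and triangles shHNRNPC libraries. Of the 14 pairs 12 are shown; the groups are apart in 11 of them and overlap in UBE2D1/UBE2D3.

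Responses were compared between closely related or co-acting E2 genes. The log2 ratio of 2 counts within a library, which does not depend on library scaling, was tested for 14 pairs, some of which share a gene. In 13 pairs the ratios of the groups did not overlap, each with the smallest p the design allows (two-sided exact permutation p = 0.0286, or 0.0308 adjusted over the 14 pairs). Over all 72006000 pairs of the genes tested, the ratios did not overlap in 67.9%, so most pairs of any 2 genes separated and nothing particular to related genes is read from the count. UBE2D1 and UBE2D3 kept their ratio within the spread (difference 0.041, exact permutation p = 0.371).

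In 6 pairs both genes were called in the same direction and the size of the change still differed. The UBE2E1/UBE2E2 count ratio went from 3.34 to 2.27 (log2 difference -0.56), although both rose, and UBE2E2 gained on UBE2E3 by 0.45. UBE2C gained on UBE2S by 0.29, and UBE2J1 on UBE2J2 by 0.32. In 2 pairs the genes were called in opposite directions: the UBE2Q1/UBE2Q2 count ratio went from 4.17 to 5.55 (log2 difference 0.41) and the UBE2G1/UBE2G2 ratio from 0.417 to 0.495 (log2 difference 0.25). For the UBC13 partners, the UBE2V1/UBE2V2 count ratio went from 0.0895 to 0.0603 (log2 difference -0.57), with the uncertainty of the UBE2V1 counts given above. Other differences were 0.27 for UBE2A/UBE2B, 0.26 for UBE2L3/UBE2L6, -0.16 for UBE2F/UBE2M and -0.11 for UBE2E1/UBE2E3.

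The paralog of UBE2R2, CDC34 (UBE2R1), carries another name and so falls outside the symbol rule. It was chosen for description after its values were seen. CDC34 had 47.5, 47.8, 47.7 and 45.6 CPM in control and 58.1, 59.6, 58.3 and 60.1 CPM in shHNRNPC libraries, all higher (log2 fold change 0.32, edgeR adjusted p = 8.1e-12). The count ratio of UBE2R2 to CDC34 was 1.73 in control and 0.628 in shHNRNPC, and its log2 value ranged from 0.71 to 0.84 in control and from -0.78 to -0.58 in shHNRNPC libraries.

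**Figure D5:**
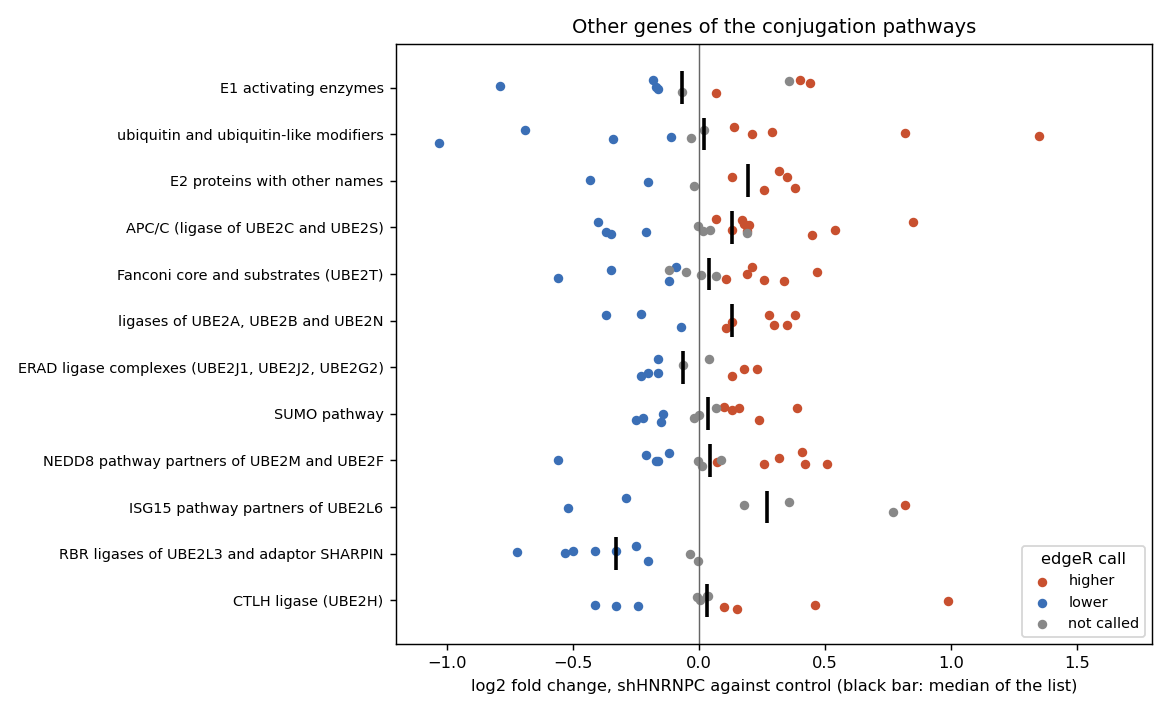
Log2 fold change of the other conjugation pathway genes, by list (rows), with each point 1 gene coloured by its edgeR call and a black bar at the median of the list. The list of RBR ligases with the adaptor SHARPIN has 7 genes lower and none higher, and the other lists hold genes on both sides of 0.

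The genes around the E2 enzymes were counted in 12 lists. Counting each gene once, 127 were tested, 52 were higher and 46 lower, so 77.2% were called, near the 77.3% over all genes tested. Upstream, 3 of 9 E1 enzymes were higher and 4 lower. SAE1, a subunit of the SUMO E1, fell from 198 ± 4.88 to 114 ± 5.06 CPM (log2 fold change -0.79), while UBA1, the main E1 for ubiquitin, rose from 446 ± 7.33 to 589 ± 5.92 CPM (log2 fold change 0.40) and UBA3, a subunit of the NEDD8 E1, rose by 0.44 on the log2 scale. Of 11 modifier genes tested, 5 were higher and 4 lower. SUMO3 fell from 167 ± 3.34 to 81.6 ± 4.19 CPM (log2 fold change -1.03), whereas SUMO2, named after its values were seen, rose from 168 ± 4.65 to 205 ± 7.3 CPM. ISG15 rose from 11.5 ± 1.17 to 20.3 ± 1.56 CPM (log2 fold change 0.82) and UBD, which encodes FAT10, from 0.951 ± 0.378 to 2.41 ± 0.46 CPM (log2 fold change 1.35). UBB was not tested, at 0 to 17 counts per library. Of the 8 E2 proteins with other names, 5 were higher and 2 lower: UEVLD (log2 fold change 0.38) and ATG3, the E2 of autophagy (0.35), rose, and TSG101, an inactive E2 variant of endosomal sorting, fell (-0.43).

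Around UBE2C and UBE2S, 9 of 17 APC/C genes were higher and 4 lower, with a list median of 0.13. The share of this list called (76.5%) was near the 77.3% over all genes tested. The highest was CDC20, the mitotic activator, which rose from 127 ± 3.52 to 228 ± 2.58 CPM (log2 fold change 0.85, edgeR adjusted p = 1.0e-40), followed by the other activator FZR1 (0.54) and the subunit CDC27 (0.45). Of 14 Fanconi pathway genes, 6 were higher and 4 lower (median 0.04). FANCM rose (log2 fold change 0.47), and FANCF (-0.56) and FAAP20 (-0.35) of the core complex fell. The UBE2T substrates FANCD2 and FANCI, named after their values were seen, rose by 0.34 and 0.21 on the log2 scale. Of 9 ligases tested for UBE2A, UBE2B and UBE2N, 6 were higher and 3 lower (median 0.13): RNF40, which acts on histone H2B, rose by 0.38, RNF8, which acts at DNA breaks, rose by 0.35, and RAD18, which acts on PCNA, had a log2 fold change of -0.37. The list of RBR ligases of UBE2L3 also holds SHARPIN (log2 fold change -0.41), an adaptor of the linear chain assembly complex that is not itself a ligase. None of this list rose: 7 of 9 genes tested were lower and 2 not called, with a median of -0.33. UBE2L3 itself was higher. The share of the list called (77.8%) was near the 77.3% over all genes tested, among which 38.6% were called lower. The list is small and was among several counted. Whether its lean to lower genes exceeds that of other gene sets of its size was not tested. The count of 0 higher held at an unadjusted edgeR p under 0.05 and with DESeq2. RBCK1, of the linear chain assembly complex, fell from 121 ± 4.33 to 73.3 ± 3.89 CPM (log2 fold change -0.72), RNF19B had a log2 fold change of -0.53 and RNF14 of -0.50.

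Around UBE2H, 4 of 11 CTLH ligase genes were higher and 3 lower (median 0.032). Its RING subunit RMND5A rose from 53.3 ± 4.54 to 106 ± 1.38 CPM (log2 fold change 0.99, edgeR adjusted p = 4.7e-21), and MAEA, the other RING subunit, rose by 0.46, while the RMND5A paralog RMND5B fell (-0.41). Of 9 ERAD ligase genes, 3 were higher and 4 lower (median -0.062), with DERL1 at -0.20 and RNF145 at 0.23. Of 12 SUMO ligase and protease genes, 5 were higher and 4 lower (median 0.035). The SUMO ligases PIAS3 (0.39) and RANBP2 (0.24) rose. Of 14 NEDD8 pathway partners, 6 were higher and 5 lower (median 0.043): CUL4B (0.51) and DCUN1D2 (0.42) rose, and SENP8, the protease that removes NEDD8, fell (-0.56). Of 6 ISG15 pathway partners of UBE2L6, 1 was higher and 2 lower (median 0.27): ISG15 rose, as given above, and TRIM25 (-0.52) and HERC6 (-0.29) fell.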

How the data were processed

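Poly(A) RNA-seq of 4 control and 4 shHNRNPC samples, grouped by the labelled genotype, was used. Per the labels' protocols and series design text, RNA was extracted with TRIzol, libraries were made with a VAHTS Universal kit and fastp removed reads of low quality. The submitters' processing notes name hg38. Which aligner, counter, annotation and strand setting were used is not given in the sources used here, so overlapping antisense genes cannot be separated. What the authors deposited is a table of raw counts for each gene.

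Counts were filtered with filterByExpr (minimum count 10, minimum total 15), scaled with TMM and tested with edgeR's quasi-likelihood test on the group term (R 4.3.3, edgeR 4.0.16), with Benjamini-Hochberg adjustment over 12001 genes and a threshold of 0.05. Shares and log2 ratios (count + 0.5) were set against each other by two-sided exact permutation over 70 assignments. Replicate libraries of a group differed by more than sampling noise (chi-square per degree of freedom 2.66 to 3.7). Alternatives were DESeq2 1.42.0, its size factors, other filters, a replicate block and leaving out libraries. Gene positions came from RefSeq (16038 genes matched) and exon lengths from GENCODE 29 (15942 matched).

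Values are given for every sample for HNRNPC, for E2 genes called with a log2 fold change of 0.5 or more in size and no overlap, for pairs called in opposite directions and for genes next to the count rule; each list names up to 3 called genes with the largest change and at least 1 CPM. The E2 genes and lists were chosen with earlier results of these data known. Some genes that these rules take are counted but not reported here.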

Additional observations from a re-analysis of the deposited data

Results flagged for a closer look

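In 7 of 86 groups of 4 values, 1 library lay far from the other 3 for its group's range, and chance alone does this in about 1 of 20 groups. UBE2B had 33.8 CPM in control library 2, against 28.5 to 29.3 in the other control libraries, and the UBE2A/UBE2B log2 ratio was 1.31 there against 1.46 to 1.49. UBE2H had 234 CPM in control library 4, against 227 in each of the others. UBE2Q1 had 85.3 CPM in shHNRNPC library 3, against 89.4 to 90.2. The UBE2V1/UBE2V2 log2 ratio was -4.24 in shHNRNPC library 3, against -4.0 to -3.97. The UBE2C/UBE2S log2 ratio was -0.075 in shHNRNPC library 1, against -0.098 to -0.095, and the UBE2E1/UBE2E3 log2 ratio was 0.86 in control library 3, against 0.95 to 0.97.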

How the results depend on the processing

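Over 15 alternatives (other scaling, tool, filters, the replicate block and left-out libraries), 21 of the 32 E2 genes kept their direction and call, among them UBE2R2, UBE2H, UBE2E2, UBE2C and UBE2T. The counts ranged from 14 to 17 higher and 9 to 10 lower without each library in turn. The median log2 fold change of the E2 genes was 0.056 to 0.067 without each library in turn and 0.048 without shHNRNPC libraries 1 and 4. Besides the calls noted above, UBE2K lost its call without shHNRNPC libraries 2 and 3 (edgeR adjusted p = 0.298), and UBE2J2 also with no filter on low counts (adjusted p = 0.0589). Without shHNRNPC libraries 1 and 4, UBE2D3, UBE2G1, UBE2J2 and UBE2Q1 were not called either. UBE2B gained a call without shHNRNPC libraries 2 and 3 (-0.14, adjusted p = 0.0494), UBE2L6 without shHNRNPC library 2 (0.094, adjusted p = 0.0326) and UBE2V1 without control library 4 (-0.25, adjusted p = 0.028). UBE2D1, never called, changed sign without shHNRNPC library 4 (0.0024) or libraries 1 and 4 (0.032; range without each library -0.05 to 0.0024), and UBE2M, never called, without control library 1 (0.018), shHNRNPC library 3 (0.013) or libraries 2 and 3 (0.0093; range without each library -0.023 to 0.018).

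The difference in E2 share of all counts was -0.00151 percentage points without the 10 most abundant genes of each library (exact permutation p = 0.257), 0.0228 per length, and 0.000112 to 0.0013 without each library in turn. The 13 separated pairs stayed at 13 under every alternative run. Leaving out a library cannot make separated groups overlap, so those alternatives could not have lowered this count. The ISG15 list had 2 rather than 1 genes higher in 5 of the 15 alternatives. Replicate numbers did not pair the samples (correlations of same-numbered deviations -0.0552 to 0.017). With the number as a block, 16 E2 genes were higher and 10 lower, and the E2 share difference stayed at 0.000553 (exact sign-flip permutation p = 0.75). The cause of these changes was not tested. Counts of 193 to 8832 per library for each E2 gene set the counting precision.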
